A study of Mus musculus with 9 samples.

Results

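The chaperone genes of the lens were taken as all listed genes whose symbol begins with Hsp or Dnaj, those named Cct followed by a digit, and Tcp1. Hspg2, a matrix proteoglycan gene that shares the first letters, was left out. The rule found 60 of the 7676 genes listed once in the tables of inbred wild type lenses. In the tables of the other 2 groups it found 0 of 190 genes. The 60 members were 3 Hsp90 genes, 9 Hsp70 and Hsp110 genes, 2 genes of the mitochondrial Hsp60/Hsp10 chaperonin, 8 subunits of the CCT ring, 32 J-domain (DNAJ) genes, 5 small heat shock protein genes and the Hsp70 partner Hspbp1.

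The study sequenced total RNA of mouse lenses at 15.5 days post conception to ask what loss of the transcription factor Sip1 (gene Zeb2) changes in the lens. The inbred wild type group was of the strain C57Bl/6<har>. The mixed-background wild type carried Sip1 flox/flox alleles and no Cre, and the conditional knockout (cKO) carried the same floxed alleles together with MLR10Cre, a transgene active in lens cells. Each group had 3 libraries, and each library pooled 30 lenses, so the spread between libraries is one between pools and not between animals. The labels' protocol calls these pools independent biological replicates.

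In each of the 190 genes of the mixed wild type and cKO tables, the group means of the authors' normalized values differed by at least 2.505-fold. A gene outside those tables has no value for these groups here, and no chaperone gene was inside them. Whether any chaperone gene changed with loss of Sip1 or with genetic background was therefore not measured here. What follows describes the inbred libraries, with values per library and their spread and without tests between groups.

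Chaperones bind unfolded or partly folded proteins and help them to fold, assemble or be handed on for degradation. Hsp70 works with J-domain proteins, which bring clients and start its ATPase cycle, while Hsp90 takes over late folding steps. The CCT ring encloses actin, tubulin and other clients, and small heat shock proteins hold unfolding proteins without using ATP. The lens is known for 2 small heat shock proteins that carry other names, the alpha crystallins, and for Hsf4, the heat shock factor whose loss leads to cataract.

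Depth was 16.7, 16.3 and 14.1 M mapped reads (M, mega) in the inbred libraries, and a member had between 67 and 46773 reads in a library (median 772). Against read sampling the pairs of replicates had chi-square values of 6.97 to 16.7 per degree of freedom, so none was counted as a copy of another. All 20 lens fibre markers and all 8 lens epithelium markers of the lists used were in the inbred tables. Of markers of other cells, 1 of 11 retinal, 1 of 6 pigment cell, 6 of 10 endothelial, 2 of 9 neuronal and 7 of 12 erythroid genes were listed, and 0 of 10 for periocular mesenchyme, 0 of 8 for leukocytes and 0 of 9 for muscle. The erythroid genes summed to between 1077 and 1123 reads per kilobase of exon per M mapped reads (RPKM), and their part in chaperone levels was not tested. In such bulk tissue, fewer cells of a type and less RNA per cell cannot be told apart.

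Together the chaperone genes held 1.39%, 1.38% and 1.40% of the reads of listed genes in the 3 libraries (mean 1.39% ± 0.0141, SD, n = 3). Of 84 protein-coding RefSeq genes that meet the rule, 24 were outside the list and have no level here. By median the 60 listed members lay above all listed genes, although many members were low. The median of the members' means was 13.5 RPKM, beside 7.65 RPKM over all listed genes. Of the 60, 10 (16.7%) had a mean of at least 100 RPKM, beside 4.01% of all listed genes. Another 24 lay between 10 and 100 RPKM and 26 below 10 RPKM. Hsp90ab1 and Hspa8, the constitutive cytosolic Hsp90 and Hsp70, took 44.3% of all chaperone reads. By family, Hsp90 genes held 31.1% ± 0.477 (SD, n = 3) of chaperone reads, Hsp70 and Hsp110 genes 29.6% ± 0.211 and the CCT ring 22.1% ± 0.246. The 32 DNAJ genes, although the most numerous, held 7.06% ± 0.128 (class C), 3.78% ± 0.0955 (class B) and 2.502% ± 0.113 (class A). The mitochondrial chaperonin pair held 3.23% ± 0.0755, and the small heat shock protein genes 0.362% ± 0.0208. These shares count reads, so genes with longer exons weigh more. In summed RPKM the CCT ring was above the Hsp70 and Hsp110 genes in each library (949, 938 and 942 against 849, 834 and 841). The shares also depended on the scale. With the authors' normalized values Hsp90 held 30.7% ± 2.07 (SD, n = 3) and the CCT ring 30.4% ± 1.41, an order not resolved on that scale. Hsp70 and Hsp110 genes held only 17.1% ± 0.189, so they and the CCT ring changed places. On that scale the mitochondrial pair held 2.08% and the small heat shock protein genes 0.623%. The RPKM of Hspa8, the largest part of the Hsp70 share, is uncertain, since most of its transcript sequence occurs in other transcripts as well.

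**Figure D1:**
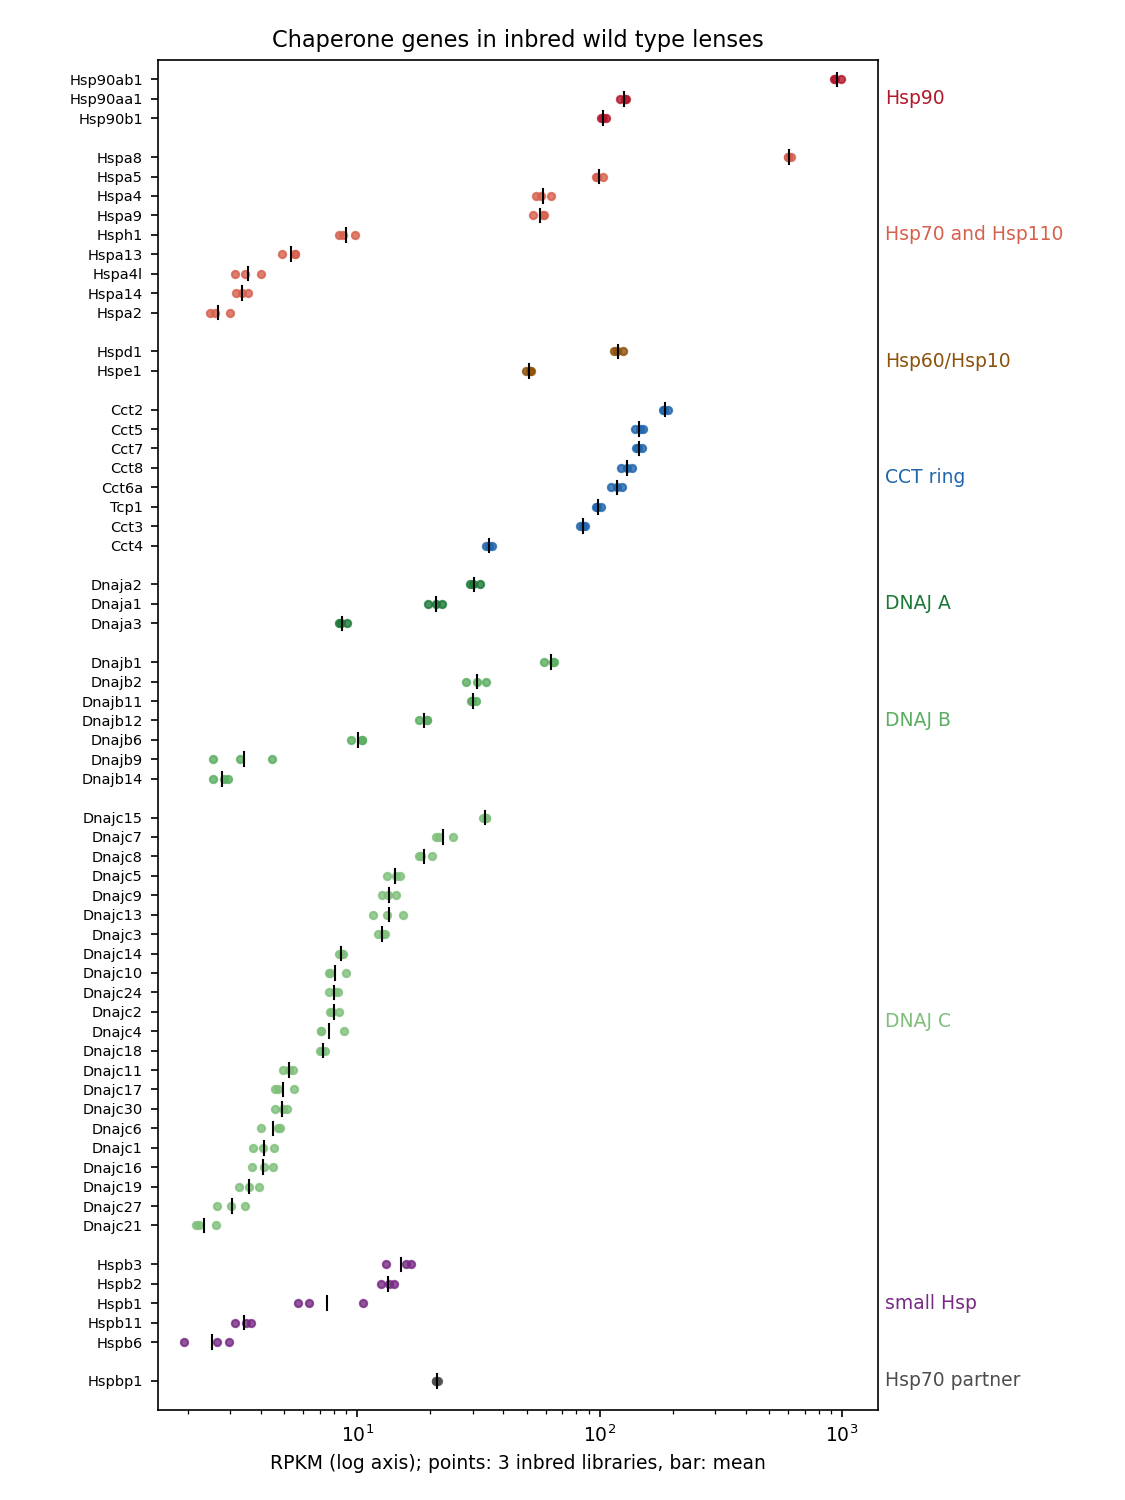
RPKM (log axis) of each of the 60 chaperone genes in the 3 inbred libraries (points) with their mean (bar), grouped by family. Hsp90ab1 and Hspa8 stand apart at the upper end, the 8 CCT genes lie between 34.1 and 192 RPKM, and the widest scatter is seen for Hspb1, Dnajb9 and Hspb6.

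The 3 Hsp90 genes had separate levels. Hsp90ab1, the constitutive cytosolic form, was at 935, 926 and 988 RPKM (mean 949 ± 33.6, SD, n = 3) and ranked 31 among all listed genes. Hsp90aa1, the cytosolic form known as the more stress-inducible of the pair, was at 127, 129 and 121 RPKM. Hsp90b1, the Hsp90 of the endoplasmic reticulum, was at 103, 101 and 106 RPKM. In RPKM the libraries of neighbours in this order did not overlap. The order of Hsp90aa1 and Hsp90b1 held in RPKM only. Per principal transcript length in GENCODE M21 they overlapped, at 151 ± 5.05 and 148 ± 3.43 reads per kilobase per M (SD, n = 3), and in the authors' normalized values per kilobase of exon Hsp90b1 was the higher, at 1285 against 436. Hsp90ab1 exceeded Hsp90aa1 7.34-fold, 7.18-fold and 8.17-fold in the 3 libraries (7.56 ± 0.529, SD, n = 3). Of the Hsp90aa1 transcript, 62.9% of the words of 31 bases also occur in transcripts of other genes, beside 16.6% for Hsp90ab1, so this fold is uncertain. On the authors' normalized scale, per exon length, the same ratio was 36.9.

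Among Hsp70 and Hsp110 genes, Hspa8 (Hsc70) led at 616, 598 and 596 RPKM (mean 603 ± 10.9, SD, n = 3, rank 57). Hspa5 (BiP), the Hsp70 of the endoplasmic reticulum, followed at 103, 97.0 and 97.3 RPKM. Hspa4, an Hsp110 family member that exchanges the nucleotide of Hsp70, was at 54.7, 57.1 and 62.9 RPKM. Its range overlapped that of Hspa9 (mortalin), the mitochondrial Hsp70, at 53.1, 58.5 and 58.9 RPKM. The other 5 genes were all below 10 RPKM: Hsph1, Hspa13, Hspa4l, Hspa14 and, lowest, the testis-enriched Hspa2 at 2.59, 2.46 and 2.97 RPKM. Per principal transcript length Hsph1 was at 16.7 and Hspa14 at 15.1 reads per kilobase per M, and the other 3 stayed below 10. The heat-inducible Hsp70 genes Hspa1a and Hspa1b and their relative Hspa1l were outside the inbred list, as were Hspa12a and Hspa12b. No listed gene had a mean under 2 RPKM, and genes outside the list were either below this level or missing from it for another reason. The constitutive Hspa8 thus stood 6.09-fold ± 0.103 (SD, n = 3) above Hspa5 in RPKM, but this order turned over on the authors' normalized scale, where the ratio per exon length was 0.852. Of the words of Hspa8, 79.7% are shared with other transcripts, mostly with the processed pseudogene Gm15459 (74.3%), beside 0.0549% for Hspa5.

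The mitochondrial chaperonin is built from Hspd1 (Hsp60), which forms the barrel, and Hspe1 (Hsp10), which forms its lid. Hspd1 was at 115, 118 and 124 RPKM and Hspe1 at 52.2, 51.6 and 49.8 RPKM. The ratio of Hspd1 to Hspe1 was 2.19, 2.30 and 2.49 (2.33 ± 0.154, SD, n = 3). It depended on the length used, and with the length of the principal transcript in GENCODE M21 in place of the exon length of the files it was 1.33 ± 0.0879. Both genes share more than 50% of their words with other transcripts (55.8% and 59.1%), Hspd1 mostly with the pseudogene Hspd1-ps3.

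Hspd1 and Hspe1 are neighbours that are read in opposite directions, with start sites 216 bases apart in RefSeq (GRCm38.p6), and their promoter windows overlap over 285 bases. The 215 bases between both start sites are shown because they belong to the promoters of both genes. They lie at chr1:55087933-55088147 and are given on the plus strand, on which Hspe1 is read.
Hspd1 to Hspe1: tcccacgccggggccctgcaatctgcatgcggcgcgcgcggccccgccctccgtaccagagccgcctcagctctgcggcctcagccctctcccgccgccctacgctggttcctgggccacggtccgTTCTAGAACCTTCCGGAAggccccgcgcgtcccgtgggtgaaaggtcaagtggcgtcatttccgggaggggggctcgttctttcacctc
The capitals mark 18 bases in which short inverted units of the heat shock element follow each other without interruption. Counted from each start site, with negative positions before it, these bases lie at -89 to -72 for Hspe1 and, read on the other strand, at -144 to -127 for Hspd1.

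The 8 CCT genes, each coding for a different subunit of the ring, were all listed, between 34.1 and 192 RPKM in single libraries. Cct2 was highest at 192, 185 and 182 RPKM (mean 186 ± 5.04, SD, n = 3). Cct5 at 140, 146 and 151 RPKM and Cct7 at 150, 142 and 145 RPKM overlapped each other. So did Cct8 at 136, 129 and 122 RPKM and Cct6a at 112, 117 and 124 RPKM. Below them were Tcp1, the alpha subunit, at 97.0, 101 and 97.2 RPKM and Cct3 at 86.7, 83.3 and 85.7 RPKM. Cct4 was lowest at 36.1, 34.1 and 35.0 RPKM (mean 35.1 ± 1.02, SD, n = 3). Of the 7 neighbouring pairs in this order, 5 did not overlap between libraries. Cct6b and Cct8l1, the relatives known from testis, were outside the list.

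The ring holds its subunits in equal number, and the RPKM of the highest gene was 5.32-fold, 5.42-fold and 5.20-fold that of the lowest (5.32 ± 0.109, SD, n = 3). This spread and the order of subunits depended on the gene length. The exon length of the files exceeded the principal transcript of GENCODE M21 2.37-fold for Cct3, 2.06-fold for Tcp1, 1.69-fold for Cct4 and 1.52-fold for Cct5, and was close to it for Cct2 (1.002-fold). Per principal transcript length the spread over 7 subunits, with Cct6a left out for want of such a transcript, was 3.72 ± 0.217 (SD, n = 3). Cct5 was then highest at 221 ± 8.24, followed by Tcp1 at 203 ± 5.10, Cct3 at 202 ± 4.07 and Cct2 at 187 ± 5.05 reads per kilobase per M. Cct4 was the lowest subunit on both scales, at 59.3 ± 1.72 per principal transcript length.

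**Figure D2:**
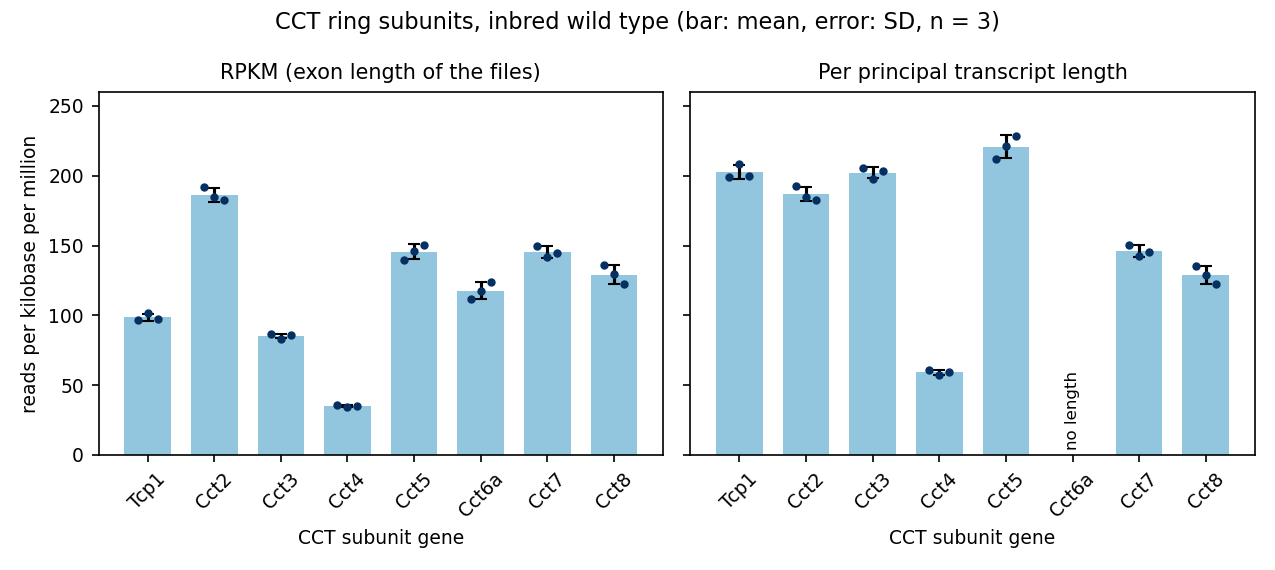
Levels of the CCT subunit genes in the 3 inbred libraries in RPKM (left) and per principal transcript length (right), both in reads per kilobase per M mapped reads from 0, with bars for the mean, error bars for the SD (n = 3) and points for libraries. Cct2 leads on the left and Cct5 on the right, and Cct4 is lowest in both (35.1 and 59.3).

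All J-domain genes had means below those of Hspa8 and Hspa5. In class A, Dnaja2 was at 29.2, 32.0 and 29.9 RPKM and Dnaja1 at 22.4, 21.2 and 19.6 RPKM, both cytosolic partners of Hsp70. Dnaja3, the mitochondrial member, was at 8.61, 8.42 and 9.04 RPKM, and the 3 genes did not overlap in RPKM. Per principal transcript length Dnaja1, at 32.3 ± 2.16 reads per kilobase per M (SD, n = 3), and Dnaja2, at 29.5 ± 1.43, overlapped and changed places. In class B, Dnajb1 (Hsp40), the main cytosolic partner of Hsp70, was the highest J-domain gene in RPKM, at 65.1, 64.4 and 58.8. Per principal transcript length Dnajb1, at 51.8 ± 2.83 reads per kilobase per M (SD, n = 3), overlapped Dnajc7 of class C, at 47.0 ± 4.24. Dnajb2, at 28.2, 34.0 and 31.2 RPKM, overlapped Dnajb11, a co-chaperone of the endoplasmic reticulum, at 30.9, 29.7 and 29.4 RPKM. Dnajb12, a membrane protein of the same organelle, was at 18.0, 19.4 and 19.4 RPKM, followed by Dnajb6 and Dnajb9. The exon length of Dnajb6 in the files was 3.56 times its principal transcript, and per that transcript it was at 36.1 ± 2.01 reads per kilobase per M (SD, n = 3), above Dnajb12 at 20.8 and Dnajb2 at 23.6. The lowest by mean RPKM, Dnajb14, was at 2.54, 2.83 and 2.94 RPKM and overlapped Dnajb9. Per principal transcript length the mean of Dnajb9, 2.59 reads per kilobase per M, was below that of Dnajb14, 3.66. The exon lengths of Dnajb1, Dnajb2 and Dnajb9 in the files were only 0.825, 0.760 and 0.758 of their principal transcripts. Reads outside those exons were not counted. The values of these genes per principal transcript length may thus run low, and their places on that scale are uncertain. Dnaja4, Dnajb3, Dnajb4, Dnajb5, Dnajb7, Dnajb8 and Dnajb13 were outside the list.

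Class C, whose members share little beyond the J domain, had 22 listed genes with means from 2.34 to 33.6 RPKM and a median of 7.85 RPKM. Dnajc15, a protein of the mitochondrial inner membrane, was highest at 33.9, 34.0 and 33.0 RPKM. The files give it an exon length of 648 bases, while its principal transcript in GENCODE M21 has 6193 bases. Its reads were counted on the exons of the files only. Divided by the longer length they gave 3.52 ± 0.0608 reads per kilobase per M (SD, n = 3). This figure misses any reads on the other bases and is no level of the gene. Whether Dnajc15 led the class per principal transcript length is therefore not known. Of the other class C genes Dnajc7 was highest on that scale, at 47.0 ± 4.24. Dnajc7, which binds both Hsp70 and Hsp90, was at 24.9, 21.7 and 21.07 RPKM. Dnajc8, a protein found with the splicing machinery, was at 20.4, 18.3 and 17.9 RPKM, and Dnajc5, the cysteine string protein of secretory vesicles, at 13.2, 14.5 and 15.1 RPKM. The lowest was Dnajc21. The means of the remaining genes (Dnajc1, Dnajc2, Dnajc3, Dnajc4, Dnajc6, Dnajc9, Dnajc10, Dnajc11, Dnajc13, Dnajc14, Dnajc16, Dnajc17, Dnajc18, Dnajc19, Dnajc24, Dnajc27 and Dnajc30) ran from 3.04 to 13.5 RPKM. Of 21 neighbouring pairs within the class only 6 did not overlap between libraries, so the order of most class C genes is not resolved. Dnajc12, Dnajc22, Dnajc25, Dnajc28, Dnajc5b and Dnajc5g were outside the list.

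The small heat shock protein genes under the Hspb symbols were low, with 42.1 RPKM summed over 5 genes. Hspb3 was at 15.9, 16.7 and 13.1 RPKM and Hspb2 at 13.5, 12.5 and 14.2 RPKM, which overlap. Both are best known from muscle, and a part of muscle cells in their levels was not tested. Hspb1 (Hsp25), the widely expressed stress-inducible member, was at 6.34, 10.53 and 5.69 RPKM, with the library of replicate 2 above the other 2. Hspb11, a subunit of the intraflagellar transport complex that is counted here by its symbol only, was at 3.65, 3.14 and 3.48 RPKM. Hspb6 (Hsp20) was at 2.97, 1.92 and 2.64 RPKM. Per principal transcript length Hspb11, at 11.7, was above Hspb1, at 8.59 reads per kilobase per M. Hspb7, Hspb8 and Hspb9 were outside the list.

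The alpha crystallins, members of the same protein family under other symbols, were far higher. Cryaa was the highest of all listed genes at 89577, 91467 and 86004 RPKM. Cryab ranked 18 at 2132, 2310 and 1818 RPKM (mean 2087 ± 250, SD, n = 3). The mean of Cryaa was 2116-fold the summed mean of the 5 Hspb genes, and that of Cryab 49.6-fold. Cryab and Hspb2 are direct neighbours in the RefSeq gene order of GRCm38.p6, and Cryab was 157-fold ± 28.6 (SD over 3 libraries) higher than Hspb2. The Hspb2 transcript shares 29.9% of its words with transcripts of Cryab, so the value of Hspb2 is uncertain. Hspbp1, which releases the nucleotide of Hsp70 and is no chaperone by itself, was at 21.10, 21.11 and 21.62 RPKM. Hspbap1 was outside the list.

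The median coefficient of variation (CV, SD over mean) over the 3 libraries was 5.60% for members and 7.21% for all listed genes. Median counting errors were 3.66% and 4.57%. Above a minimum mean of 5 RPKM the median CV was 4.36% for 45 members and 6.58% for 5096 listed genes. Members had the higher median RPKM, and genes of matched level were not compared. The CV exceeded its counting error more than 2 times in 27 of 60 members (45%), beside 35.8% of all listed genes. The lowest CVs with at least 5 RPKM were those of Hspbp1 (1.41%, counting error 4.49%) and Dnajc15 (1.73%, counting error 5.42%). Both lay below the counting error, so they do not show these genes to be steadier than others. The most variable were Hspb1 (34.9%, counting error 9.46%), Dnajc13 (14.4%, at 11.6, 13.3 and 15.5 RPKM), Dnajc4 (12.9%, at 8.83, 7.12 and 7.10 RPKM), Hspb3 (12.2%) and Dnajb2 (9.47%). Dnajc13 is an endosomal J-domain protein.

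A CV over 20% was found in 3 members (5%), beside 3.06% of all listed genes. They were Hspb1, Dnajb9 and Hspb6, of which the last 2 were named after their values were seen. Dnajb9, a co-chaperone of the endoplasmic reticulum induced by unfolded proteins, was at 4.43, 3.29 and 2.54 RPKM. Its CV of 27.9% stood beside a counting error of 10.4%. Hspb6 had a CV of 21.4% with a counting error of 10.7%. The 3 genes did not move together, since replicate 2 was highest for Hspb1 and lowest for Hspb6, and replicate 1 was highest for Dnajb9.

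**Figure D3:**
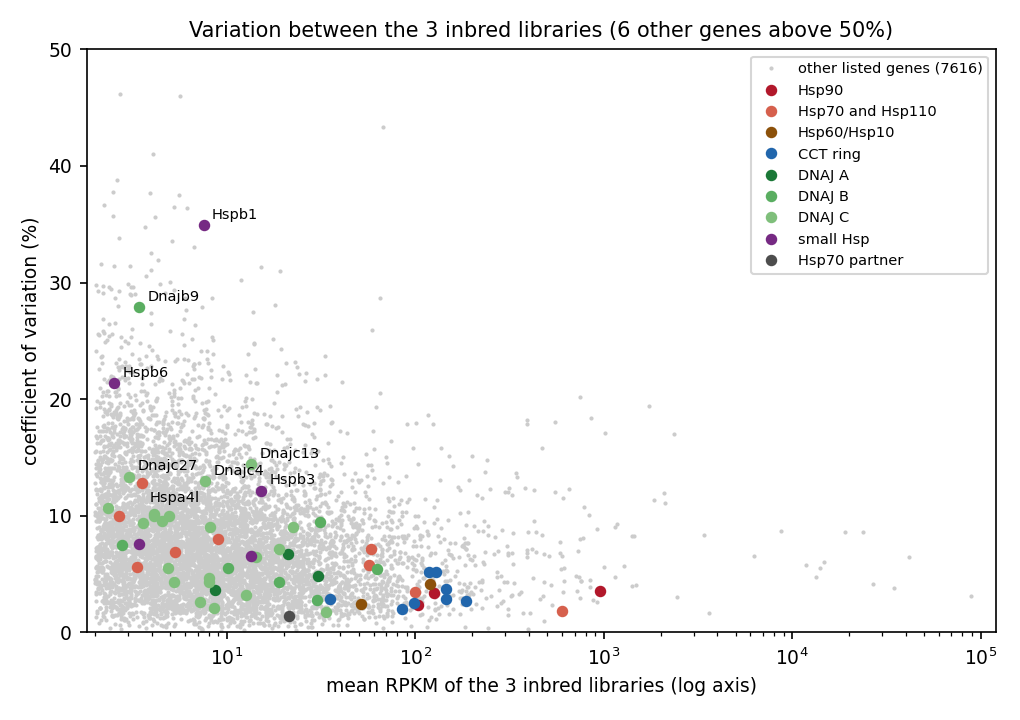
CV over the 3 inbred libraries (%) against mean RPKM (log axis) for chaperone genes, coloured by family, and all other listed genes in grey. Hspb1 (34.9%), Dnajb9 (27.9%) and Hspb6 (21.4%) stand above the other members, while members above 100 RPKM all lie near or under 5%.

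The authors' second value, a normalized expression value with no stated unit, differed from RPKM in a way that followed the gene. The normalized value per read, set relative to the median of all listed genes, had a median of 0.934 over members and reached at most 1.20. It was under 0.5 in 6 members (10%), beside 7.15% of all listed genes. These were Hspa8 (0.122), Hsp90aa1 (0.141), Dnajb6 (0.262), Hspd1 (0.380), Dnaja1 (0.406) and Hspe1 (0.419), of which Dnajb6 was named after its value was seen. Each of them shared much of its transcript with other genes, from 31.2% of words for Dnaja1 to 79.7% for Hspa8. Among the 23 members that shared at least 10% of words, 12 had a relative value under 0.75, and among the 36 that shared less, 0 did. Across 59 members Pearson's r between both measures was -0.819 and Spearman's rho -0.673, a description across genes, which are not independent replicates. How either value treats reads that match several genes is not given in the sources used here, so the RPKM of these 6 genes is uncertain. Hspb1, with 65.4% of words shared, mostly with the pseudogene Hsp25-ps1, had a relative value of 0.505. Members that share 0% of words differed as well, from 0.852 for Cct5 (5986 to 6688 reads) to 1.20 for Hspb6 (72 to 114 reads). A relation of the relative value to read number was not tested.

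**Figure D4:**
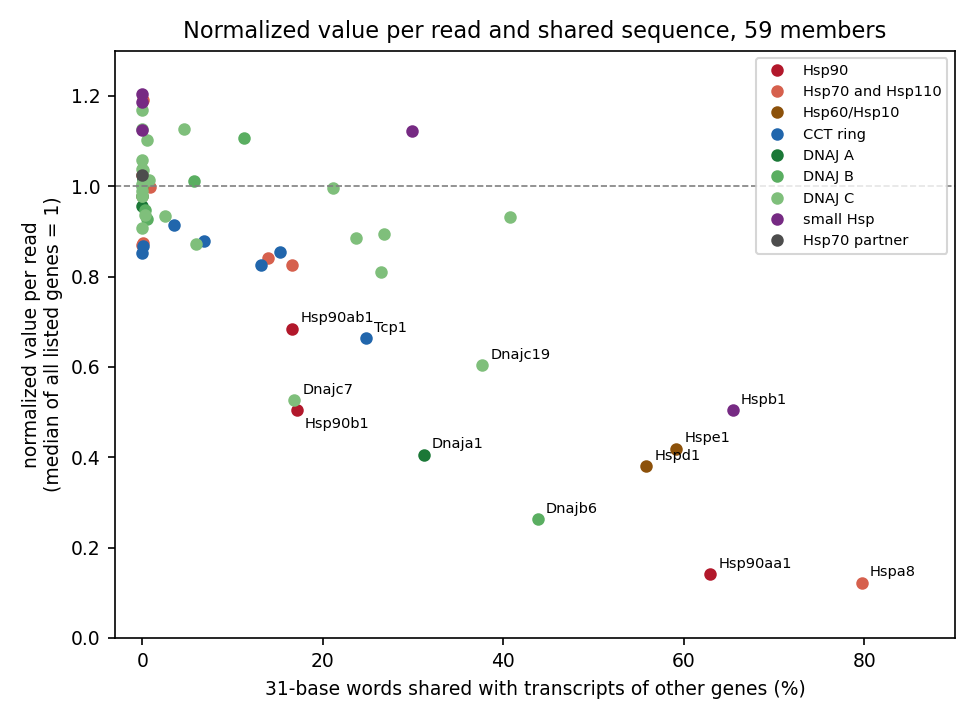
Authors' normalized value per read (relative to the median of listed genes, dashed line at 1) against the percentage of 31-base words that a member's principal transcript shares with transcripts of other genes, for 59 members. The members under 0.5 all share at least 31.2% of words, and Hspa8 and Hsp90aa1 lie lowest at 0.122 and 0.141.

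Heat shock factors bind inverted repeats of a short unit in promoters. RefSeq promoter windows (GRCm38.p6, 250 bases before to 50 after each start) were found for 48 of 60 members, and no window was matched for Cct4, Dnajc2, Dnajc5, Dnajc11, Dnajc18, Dnajc30, Hsp90aa1, Hsp90ab1, Hspa8, Hspa9, Hspa13 and Hspb2. The 2-unit form, GAANNTTC, which reads the same on both strands, was present for 10 of 48 members (20.8%), beside 9.04% of all 27025 genes with windows. These were Cct2, Dnaja1, Dnajb6, Dnajc27, Hspb1, Hspb3, Hspb6, Hspd1, Hspe1 and Hsph1. The longer form with 3 inverted units, which contains the 2-unit form, was present for 4 members (8.33%), beside 0.662% of all genes. These were Dnajb6, Hspd1, Hspe1 and Hsph1, and Hspd1 and Hspe1 share the same bases. CCAAT on either strand was present for 43.8% of members and 41.1% of all genes, and TATAAA on either strand for 8.33% and 15.7%. Members with the 2-unit form had a median of 12.7 RPKM and the others 13.5 RPKM. For the 3-unit form these medians were 30.7 and 13.5 RPKM. Among 21 matched genes outside the inbred list, 6 had the 2-unit form, Hspa1a, Hspa1b, Hspb8 and Dnaja4 among them.

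The elements of the most variable small heat shock protein genes, of Dnajb6, the single member outside the chaperonin pair with a 3-unit form before its start, and of Cct2, the highest CCT gene in RPKM, are shown with 12 bases on either side, with the matching bases in capitals, on the strand of the gene.
Dnajb6, chr5:29735840-29735876, plus strand, -46 to -34 from the start: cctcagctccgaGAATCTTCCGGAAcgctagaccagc
Hspb1, chr5:135887790-135887821, plus strand, -117 to -110 from the start: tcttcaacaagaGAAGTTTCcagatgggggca
Hspb1, chr5:135887810-135887841, plus strand, -97 to -90 from the start: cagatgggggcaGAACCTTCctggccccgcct
Hspb6, chr7:30553169-30553200, plus strand, -120 to -113 from the start: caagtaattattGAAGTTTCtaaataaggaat
Cct2, chr10:117063398-117063429, minus strand, -42 to -35 from the start: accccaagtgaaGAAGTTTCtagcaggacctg
A match describes letters in a window and is no shown binding site, and a window without a match says nothing of the factor. The window of Hspb1 held 2 separate matches, and in Hsph1 the element lay after the start. Dnajb6 has a further window with a later start that holds the same bases, and its positions are counted from the earlier start. The median CV was 7.36% for members with the 2-unit form and 6.09% for those without it. For the 3-unit form, present in 4 members, it went the other way, with 4.86% beside 6.91%. A link of elements with variation was not tested.

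The genes that act with the chaperones were taken from lists of heat shock factors, co-chaperones and folding factors, of which 64 of 68 genes were in the inbred tables and 0 in the mixed wild type and cKO tables. Of the heat shock factors, Hsf4 was at 105, 98.4 and 101 RPKM (mean 101 ± 3.07, SD, n = 3). Hsf1, the general stress factor, was at 15.4, 14.2 and 16.0 RPKM, and Hsf2 at 6.13, 5.27 and 4.83 RPKM. The mean of Hsf4 was 6.69-fold that of Hsf1 and 18.8-fold that of Hsf2, and no libraries overlapped. Hsbp1, a small protein that binds Hsf1, was at 95.3, 79.9 and 77.6 RPKM, and Hsf5 was outside the list.

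Of the Hsp90 and Hsp70 co-chaperones 21 of 23 were listed, led by Ahsa1, which stimulates the Hsp90 ATPase, at 88.6 ± 3.45 RPKM (SD, n = 3) and Stip1, which links Hsp70 to Hsp90, at 82.8 ± 5.73 RPKM. Of the list of prefoldin, which delivers clients to CCT, and CCT partners, 9 of 10 genes were listed. One of the 9, Txndc5, is a disulfide isomerase of the endoplasmic reticulum and not a known CCT partner. The list was led by Pfdn5 at 82.1 ± 7.89 RPKM and Pfdn1 at 46.5 ± 2.44 RPKM. The tubulin folding cofactors, which act after CCT, had all 6 listed, led by Tbca at 134 ± 17.5 RPKM and Tbcb at 66.7 ± 5.33 RPKM. All 14 folding genes of the endoplasmic reticulum were listed, led by the disulfide isomerase Pdia6 at 206 ± 11.99 RPKM and calreticulin (Calr) at 170 ± 7.20 RPKM. Both were above Hspa5 and Hsp90b1 in RPKM in every library. All 8 mitochondrial folding genes were listed as well, led by the protease subunit Clpp at 28.3 ± 2.23 RPKM and the mitochondrial Hsp90 relative Trap1 at 20.8 ± 1.70 RPKM. Both were below Hspd1 and Hspa9 in RPKM in every library.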

How the data were processed

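Lens RNA of 9 libraries in 3 groups was sequenced from TruSeq libraries, per the labels' protocols. The submitters' processing notes name CASAVA 1.8.2. For the aligner, the gene models and the build, nothing is given in the sources used here. For each gene and library the authors deposited its RPKM, a normalized expression value, which is a score of unstated unit, and for the inbred libraries its exon length, per the file headers. Of 7700 inbred rows, 24 with 12 repeated symbols were left out.

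RPKM times exon length gave whole multiples of a step in each library (100% of the low values used, within 0.1 reads), from which depth, reads and counting errors were computed. This step and the CV were tested on simulated data. Libraries of neighbouring genes were called apart only if all 3 of a gene lay beyond those of the other. Sequence sharing and principal (APPRIS) transcript lengths came from GENCODE M21, and promoters from RefSeq. Values per principal transcript length divide the reads counted on the exons of the files by that length. Where the principal transcript is the longer, reads outside those exons are missing and the value may run low. The planned limma comparisons of groups on log2(RPKM + 0.5) were not run, since no member had values in more than 1 group. Members, lists and the naming rule were chosen with earlier results of these data known. Named were all CCT and Hsp90 genes, the 4 highest and the lowest of each other family, the 5 most and 2 least variable at 5 RPKM or more, the 2 highest genes of each list and all heat shock factors, with values from 2.5 RPKM. The alternatives were the normalized values, repeated symbols kept, only genes of at least 5 RPKM, each replicate left out and, added after the data were seen, principal transcript lengths. Python 3.11.15, numpy 2.4.6, pandas 2.3.3, scipy 1.17.1 and matplotlib 3.10.9 were used.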

Additional observations from a re-analysis of the deposited data

How the results depend on the processing

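No paired analysis was possible because no chaperone gene had values in more than 1 group, and for the same reason the settings planned for the 3 group comparisons were not run. Leaving out each replicate, or keeping repeated symbols, moved no share, spread or ratio by more than its SD over libraries (share of listed reads 1.38% to 1.40%, CCT spread 5.26 to 5.37 without a replicate), and the median CV over members was 3.76% to 6.04% without a replicate. The authors' normalized values gave a share of 1.29% and a CCT spread of 5.04. With them the families held, of the chaperone total, 17.1% for Hsp70 and Hsp110, 30.4% for CCT, 2.08% for Hsp60/Hsp10, 2.63% for DNAJ A, 5.47% for DNAJ B, 10.6% for DNAJ C, 0.623% for small heat shock proteins and 0.447% for Hspbp1. Hsp90 kept 30.7%. Per exon length on that scale Hspa8 over Hspa5 turned to 0.852, Hsp90aa1 over Hsp90b1 to 0.339 and Hspb1 over Hspb11 to 0.948. The cause was not tested. With genes of at least 5 RPKM only, which leaves fewer genes, the share was 1.43% and the families held 31.9% for Hsp90, 22.6% for CCT, 3.31% for Hsp60/Hsp10, 3.52% for DNAJ B, 5.93% for DNAJ C, 0.262% for small heat shock proteins and 0.268% for Hspbp1. With principal transcript lengths the CCT spread was 3.72 and Hspa8 over Hspa5 was 11.0, while Dnaja2 over Dnaja1 turned to 0.916, Dnajb12 and Dnajb2 over Dnajb6 to 0.577 and 0.659, Dnajc15 over Dnajc7 to 0.0751 and Hspb1 over Hspb11 to 0.751. The ratios other than Hspa8 over Hspa5 were added after the data were seen. The principal transcripts of Dnajc15, Dnajb2 and, slightly, Dnaja2 are longer than their exon lengths in the files. Reads outside those exons are missing, so the ratios with these genes on top may run low. Depth limits the low members, whose counting error reached 10.7% (Hspb6).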
